A study of Mus musculus with 8 samples.

Results

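Of 9217 mouse genes that the authors' deposited stem cell table lists with peaks, 3644 genes (39.5%) had exactly 1 entry, and these single-peak genes are described here. They were chosen by counting the entries of each gene identifier in the table, which holds 23089 entries, so the number of peaks is what selected them and is not a result. The 3644 entries name 3503 distinct peaks of the 20961 in the table, since 268 of these genes shared 127 peaks with each other. In all, 528 of them (14.5%) had a peak that was also listed for another gene, single-peak or not. A further 2307 genes had 2 entries and 3266 genes had 3 or more, up to 131. Genes with 2 entries are the nearest to the limit of the rule.

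RNA-seq was made from 2 libraries of mouse embryonic stem cells (mESC) of the Sv129 background, 1 per group. The FA0 cells, called Case or NFIn in the table, are labelled low folic acid (FA=0). The FA4 cells, called Control or NormalFIn, are labelled normal folic acid, at 4 mg/L. Another 6 libraries came from embryonic brain collected at day 9.5 to 10.5, with 3 of the NTD (neural tube defect) group and 3 controls. NTD dams had a low folate diet and received methotrexate, a folate antagonist, at 1.5 mg/kg on gestational day 7.5, while control samples are labelled with normal saline and no diet is given for them. The labels name neither the assay behind the peaks nor a clone or passage number. With 1 library per stem cell group there is no replicate check, and no test of that comparison was run here. The authors' deposited FDR and adjusted p-values for it are counted below as description only. They cannot measure the spread between libraries of the same group.

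Stem cells in serum with leukaemia inhibitory factor hold a network of pluripotency factors and divide fast, which calls for much ribosome, histone and nucleotide synthesis. Folate carries the one-carbon units used for purines, thymidylate and methionine. The pluripotency markers were present in both libraries. Pou5f1 stood at 455.88 FPKM (fragments scaled to transcript length and library size) in FA4 and 405.08 in FA0, and Nanog at 156.44 and 208.4. The pluripotency genes Utf1 and Tdgf1 were themselves single-peak genes, at 76.68 and 79.07 FPKM for Utf1 and at 88.45 and 67.29 for Tdgf1.

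The single-peak genes were shorter and less expressed at the median than genes with more peaks. Their longest annotated transcripts had a median of 2764 bases, against 3166 in genes with 2 peaks and 4493 in genes with 3 or more. They had a median of 8 exons, against 9 and 11. When all listed genes were divided by transcript length into 5 groups of near equal size, 62.3% of the shortest group (27 to 2019 bases) had 1 peak and 21.4% of the longest (5538 bases or more). The median of the mean FPKM over both libraries was 8.05 in single-peak genes, 12.7 in genes with 2 peaks and 16.6 in genes with 3 or more. A mean under 1 FPKM was found in 431 single-peak genes (11.8%), against 7.13% of all listed genes. At 100 FPKM or more the shares were nearly the same, 5.21% of single-peak genes and 5.18% of all listed genes. The motif GGACT, a common form of the sequence context of N6-methyladenosine in RNA, was searched on the transcript strand. It occurred at a median of 1.07 per kilobase in single-peak genes, 1.05 in genes with 2 peaks and 1.08 in genes with 3 or more, so its density was nearly the same. These are descriptions of genes chosen by their peak number, and length and level were not separated from each other.

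The share of genes with a single peak differed between gene families. These shares describe the count that the rule used and are not tested results. The share also ran from 62.3% in the shortest to 21.4% in the longest transcripts, and gene family and transcript length were not separated. Among the lists with at least 15 listed genes, the highest shares were those of replication histones, cytosolic ribosomal proteins and the respiratory chain. Replication histone genes make the short messages of chromatin proteins in S phase. Their list here also holds H2az1, a histone variant gene not tied to S phase. Of the 25 genes on this list, 23 (92.0%) had 1 peak. The same held for 35 of 48 cytosolic ribosomal protein genes (72.9%) and for 43 of 59 genes of the respiratory chain and its assembly (72.9%). Proteasome subunits followed with 20 of 34 (58.8%) and mitochondrial ribosomal proteins with 29 of 53 (54.7%). At the other end were hypoxia and glycolysis genes with 2 of 16 (12.5%), DNA methylation genes with 2 of 15 (13.3%) and AlkB family and N6-adenine methylation genes with 3 of 20 (15.0%), the last being Mettl16, Mettl5 and Alkbh3. DEAD and DEAH box helicases, which unwind RNA, had 9 of 44 (20.5%). Among annotation terms with at least 100 listed genes, the term ribosome reached 60.7% and mitochondrial inner membrane 56.5%. Ribosomal protein and histone genes have near-identical copies in the genome, so how reads were split between copies leaves their values uncertain.

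**Figure D1:**
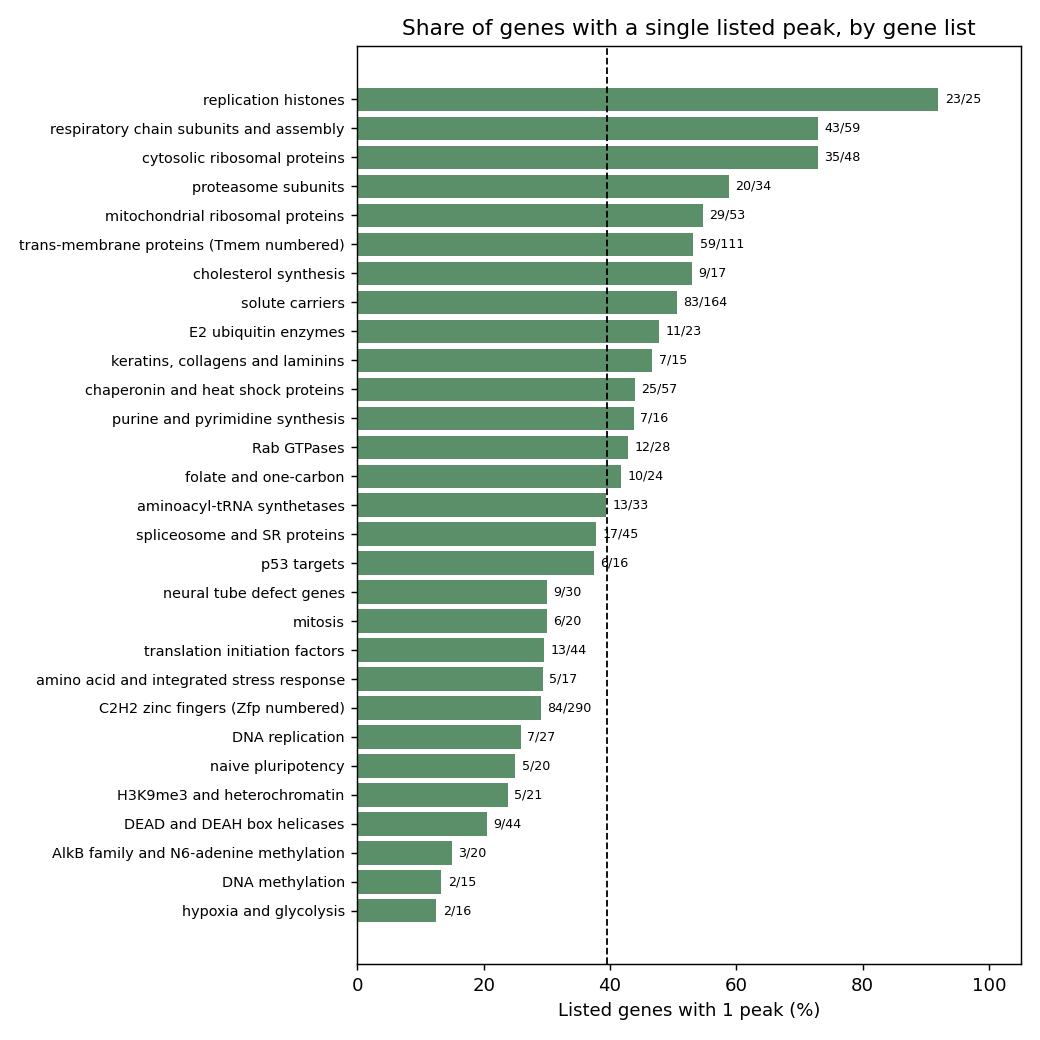
Share of listed genes that had 1 peak, in percent, for each gene list with at least 15 listed genes, with the number of single-peak genes over the number listed beside each bar. The dashed line marks 39.5%, the share over all 9217 genes, and the replication histone list, which also holds H2az1, reaches 92.0%.

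The peak numbers in the authors' deposited table run through the chromosomes in order and then start again, from 1 to 10702 and from 10703 to 20961, and the single peaks differed between these runs. In the first run, which holds 1841 single-peak genes, the authors' deposited table gives a median peak log2 fold of 6.27 in Control and 4.88 in Case. In the second run, with 1803 genes, the authors' deposited table gives medians of 2.98 and 3.67. Case minus Control therefore had a median of -1.38 in the first run and 0.66 in the second, opposite in sign. Over both runs the authors' deposited table gives 4.97 in Control, 4.25 in Case and -0.73 for the difference. The contrast between runs was not particular to single peaks. By the authors' deposited table, the median difference was -1.35 and 0.70 in genes with 2 peaks, and -1.36 and 0.58 over all entries. The labels do not say what a run is or what the fold was taken against. A negative Control fold was listed for 361 single-peak genes, 358 of them in the second run, and a negative Case fold for 4.

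By the adjusted p of the authors' deposited table, under 0.05, 665 single peaks were higher in Case and 1283 lower, of 3626 with values (53.7%). Over all entries of the authors' deposited table the share was 60.4%, with 18.5% higher and 41.9% lower. Within the first run, 25 single peaks were higher and 1138 lower in the authors' deposited table, against 0.811% and 71.7% of all entries of that run. Within the second run, 640 were higher and 145 lower, against 37.2% and 10.3%. The rule was taken from the same table, so nothing is read from these shares, and the direction of the call followed the run of peak numbers in single-peak genes as in all entries.

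**Figure D2:**
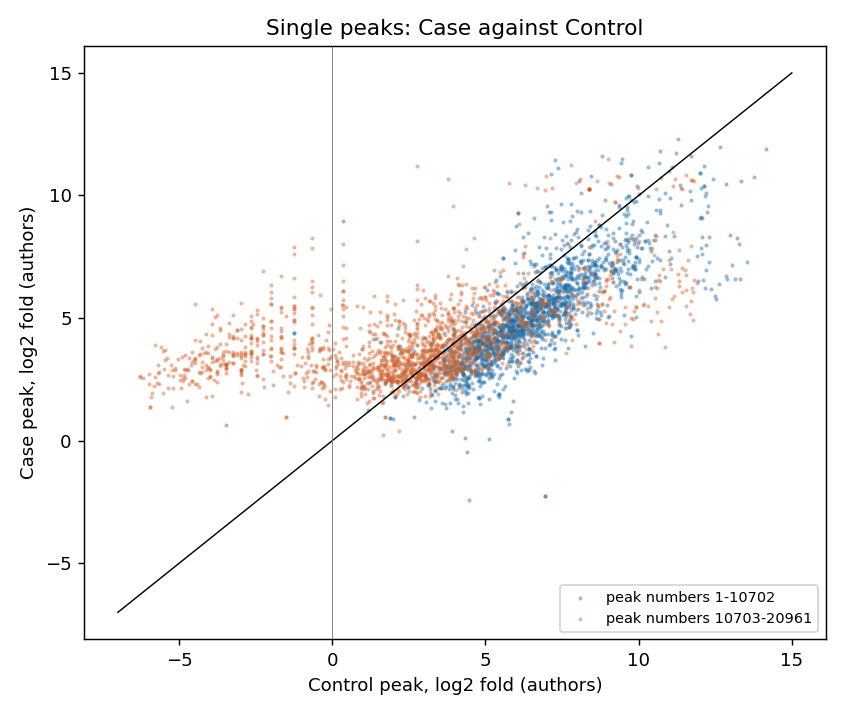
Peak log2 fold in the Case library (vertical axis) against the Control library (horizontal axis), as the authors' deposited table gives them, with 1 point per single-peak gene and the line of equality. Peaks numbered 1 to 10702 lie mostly below the line, and those numbered 10703 to 20961 extend to negative Control values.

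Peak fold was higher in weakly expressed genes. Single-peak genes under 1 FPKM had a median Control fold of 7.35 on the log2 scale, and those at 100 FPKM or more had 1.92, by the authors' deposited table. Median Case folds in the authors' deposited table were 5.91 and 3.03. The second run of peak numbers, with its lower folds, held 48.3% of the genes under 1 FPKM. It held 73.7% of those at 100 FPKM or more, and level and run were not separated. Across 3626 single-peak genes Spearman's rho between mean FPKM and Control fold was -0.49 and with Case fold -0.48, as a description across genes that share both libraries. Among the peaks of highest fold were those of Slc52a3, Onecut1, Zfp324, Tnfsf11 and Tmem211. Slc52a3, a riboflavin transporter gene, had peak log2 folds of 14.15 and 11.88 in the authors' deposited table at 1.28 FPKM in FA4 and 0.63 in FA0. Onecut1, a homeobox transcription factor gene, had 13.76 and 10.75 in the authors' deposited table at 0.09 and 0.17 FPKM, from 2 and 5 estimated counts. These 5 genes lay under 2 FPKM in both libraries.

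The most abundant single-peak genes had low or negative Control folds. The mitochondrial gene mt-Co1, a subunit of cytochrome c oxidase, stood at 3699.46 FPKM in FA4 and 3780.24 in FA0. Rps2, of the small ribosomal subunit, stood at 3179.95 and 3341.81 FPKM, and its peak is listed at -5.71 in Control and 2.35 in Case on the log2 scale in the authors' deposited table. Rplp0, of the large subunit, stood at 1808.51 and 1976.6 FPKM, and the chaperone gene Hsp90aa1 at 1299.64 and 1497.54. Rps14 reached 1255.53 and 1406.99 FPKM and Atp5b, of the ATP synthase, 1187.39 and 1308.31. All 6 differed between the libraries by at most 0.2043 on the log2(FPKM + 1) scale. Of these genes, only mt-Co1 had its peak in the first run of peak numbers.

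The FA0 to FA4 ratio of RNA levels in single-peak genes was centred near 0 on the log2 scale. Of the 3644, 2247 had a mean of at least 5 FPKM, and their log2((FA0 FPKM + 1)/(FA4 FPKM + 1)) had a median of -0.01, quartiles of -0.19 and 0.17 and a range from -2.02 to 1.64. This scale understates the change of low genes. At least 1.5-fold higher in FA0 were 87 genes (3.87%), against a background of 3.26% of the 6771 listed genes that reached this level, and 84 (3.74%) were lower, against 3.25%. In either direction the background was 6.51%. These FPKM shares lie near the background. Past 1.5-fold on both the FPKM and the estimated count scale were 62 higher (2.76%) and 48 lower (2.14%), 4.9% in either direction. Over the same 6771 genes these shares were 1.96%, 1.73% and 3.69%, and the difference was not tested. The authors' deposited table gives an FDR per gene from the same pair of libraries, under 0.05 for 296 single-peak genes higher and 265 lower, which is 15.4% in all. Over all 9217 listed genes of the authors' deposited table these shares were 10.2% higher and 9.03% lower, 19.2% in all. Unlike the 1.5-fold shares, these FDR shares have no minimum FPKM. Median FA4 counts were 95 in single-peak genes and 179 in all listed genes, and the part of count depth in the FDR shares was not tested. Across 2237 single-peak genes the peak difference and the log2 FPKM ratio had a Pearson r of -0.038 and a Spearman rho of -0.075, as a description across genes.

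**Figure D3:**
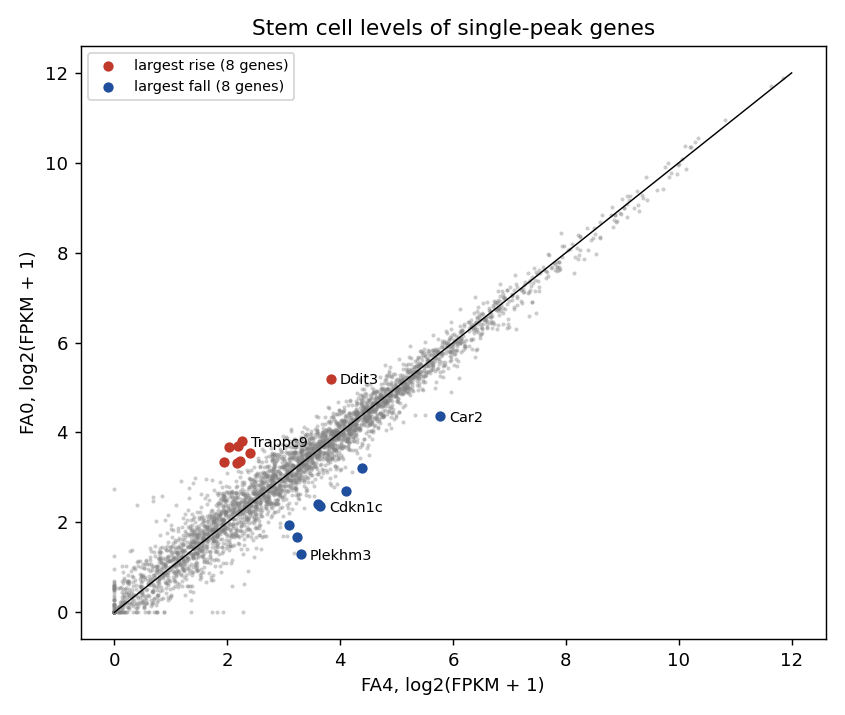
RNA level of each single-peak gene in FA0 (vertical axis) and FA4 (horizontal axis) as log2(FPKM + 1), with the line of equality, the 8 largest rises in red and the 8 largest falls in blue among genes at a mean of at least 5 FPKM. Most genes lie along the line, and Ddit3 stood at 13.24 FPKM in FA4 and 35.62 in FA0.

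The words rise and fall name here the sign of the difference between these 2 libraries, with no test. Among the 8 largest rises was Ddit3, which encodes CHOP, a transcription factor of the integrated stress response. Ddit3 went from 13.24 FPKM in FA4 to 35.62 in FA0, with 61 and 228 estimated counts and a depth-scaled count ratio of 2.80 (exact binomial 95% interval 2.10 to 3.78, counting error only). Its peak is also listed for another gene. The other 4 single-peak genes of the amino acid and integrated stress response list moved little. Asns, asparagine synthetase, stood at 543.89 FPKM in FA4 and 611.51 in FA0. Slc3a2, the heavy chain of amino acid transporters, stood at 260.13 and 266.85 FPKM. Herpud1 stood at 52.89 and 54.59 FPKM and Nupr1 at 45.2 and 44.43, so Ddit3 alone of these 5 passed 1.5-fold.

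Trappc9, which encodes a subunit of a vesicle tethering complex, went from 3.79 to 12.93 FPKM, with a count ratio of 3.34 (2.63 to 4.30). Ano9, of the anoctamin family, went from 2.83 to 9.08 FPKM, with a count ratio of 3.20 (2.32 to 4.50). Crtac1 went from 3.55 to 11.96 FPKM, but its count ratio was 1.78 (1.27 to 2.52). Erlec1, which encodes a lectin of the endoplasmic reticulum, had the largest FPKM difference, from 3.08 to 11.7, while its count ratio was 1.46 (1.00 to 2.17). The scales thus differ for Erlec1 and Crtac1, and the authors' effective gene lengths are not given. Plekhg2, Ssbp4 and Ggnbp1 made up the 8, at 1.15 each on the log2(FPKM + 1) scale.

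Of the falls, Car2 was the most abundant. Car2 encodes carbonic anhydrase 2, which interconverts carbon dioxide and bicarbonate, and went from 53.43 FPKM in FA4 to 19.53 in FA0, with a count ratio of 0.365 (0.311 to 0.427). Cdkn1c, an imprinted inhibitor of cyclin-dependent kinases, went from 11.46 to 4.14 FPKM, with a count ratio of 0.433 (0.297 to 0.626). Tox4 went from 11.16 to 4.34 FPKM, with a count ratio of 0.389 (0.321 to 0.469). Plekhm3 had the largest FPKM fall, from 8.87 to 1.44, with a count ratio of 0.386 (0.264 to 0.562). For Pxylp1 and Pls1 the FPKM fell from 8.38 to 2.19 and from 16.22 to 5.5, but the count ratios were 0.730 (0.451 to 1.18) and 0.963 (0.750 to 1.24), both intervals holding 1. Tmem184c and Rnf19b made up the 8.

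**Figure D4:**
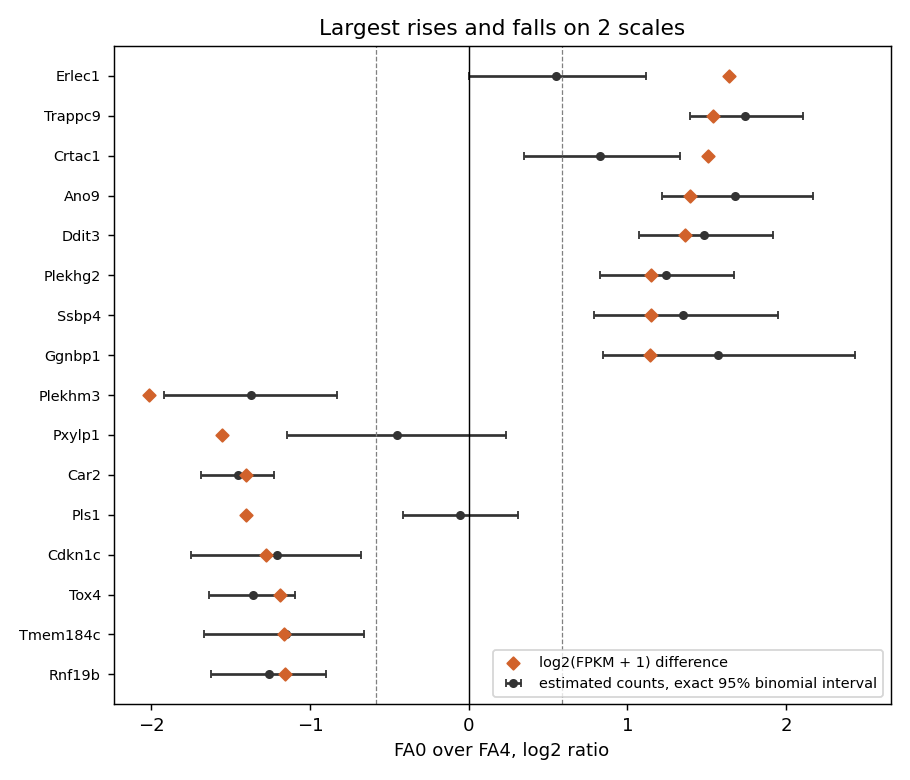
FA0 over FA4 on the log2 scale for the 8 largest rises and 8 largest falls, with diamonds for the log2(FPKM + 1) difference and circles for the depth-scaled ratio of estimated counts with its exact 95% binomial interval. Dashed lines mark 1.5-fold, and the 2 scales are far apart for Erlec1, Pxylp1 and Pls1.

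Among developmental and folate genes, Zic2, Lefty2 and Folr1 passed 1.5-fold, all lower in FA0. Zic2, a zinc finger factor required for neural tube closure in mice, went from 17.41 to 7.73 FPKM, with a count ratio of 0.444 (0.357 to 0.550), and was the 1 gene past 1.5-fold of the 5 single-peak neural tube defect genes at 5 FPKM or more. Lefty2, a Nodal antagonist, went from 19.46 to 9.78 FPKM. Of 24 listed folate and one-carbon genes, 10 had a single peak and 8 of these reached 5 FPKM, with a median log2 ratio of 0.02. Folr1, a folate receptor, was the 1 of the 8 past 1.5-fold, at 83.17 FPKM in FA4 and 50.25 in FA0, with a count ratio of 0.625 (0.528 to 0.740). Gart, which catalyses folate-dependent steps of purine synthesis, stood at 160.28 FPKM in FA4 and 185.18 in FA0. Mthfd2, a mitochondrial folate enzyme, stood at 106.25 and 114.84, and Shmt1, the cytosolic serine hydroxymethyltransferase, at 80.9 and 76.52. The 35 cytosolic ribosomal protein genes had a median of 0.07, from -0.49 to 0.36. The 21 genes of the replication histone list at 5 FPKM or more, H2az1 among them, had a median of -0.19. None was past 1.5-fold in either list.

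The brain libraries give a readout that the rule did not use. Of the 3644 single-peak genes, 3128 were in the brain table and 2767 passed the expression filter. Library totals ran from 17335564 to 26788304 counts, and control library 1 and NTD library 3 stood apart from the other 4 on the second principal component. Markers of extraembryonic tissue were higher in the NTD libraries. Of 11 trophoblast markers 9 were called higher in NTD, with summed levels of 1300 to 2020 CPM (counts scaled to library size) against 2.29 to 15.0 in controls, where Prl3d3, Prl8a9 and Tpbpa were at 0 in all libraries. Of 13 yolk sac and visceral endoderm markers 5 were called higher, with sums of 13000 to 17600 CPM against 322 to 1080. Their part in the results below was not tested, and in bulk tissue more cells of a type and more RNA per cell cannot be told apart.

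By edgeR's quasi-likelihood test, 42 single-peak genes were higher in NTD and 24 lower at an adjusted p under 0.05, which is 1.52% and 0.867% of those tested, against 1.89% and 0.998% of all 11626 genes. The share called in either direction was 2.39%, against 2.89%. This background includes 4276 genes not listed in the stem cell table, of which 4.49% were called. Among listed genes the share was 1.6% with 2 peaks and 1.77% with 3 or more, both below that of single-peak genes. These differences were not tested. All NTD libraries lay above all controls for 348 genes (12.6%) and below for 281 (10.2%), against 12.4% and 12.1% of all genes. Without control library 1 and NTD library 3 together, 46 were higher and 22 lower. The counts depended on single libraries. Without NTD library 1 there were 6 higher and 2 lower, without NTD library 2 there were 19 and 19, and without NTD library 3 there were 14 and 14. Without control library 2 there were 20 and 11, without control library 3 there were 25 and 15, and without control library 1 there were 49 and 16. Of the 66 called genes, 8 were called whichever 1 library was left out, namely Gsn, Ina, Krt18, Mt1, Mt2, Ncan, Prss8 and Spint2. Under all alternatives run 6 of these stayed called, while limma-voom did not call Ncan and Prss8.

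The rises were led by genes nearly silent in control brain. Soat2, which esterifies cholesterol, had 0.0, 0.0365 and 0.0522 CPM in controls and 57.0, 36.8 and 30.5 CPM in NTD, a pooled ratio of 1500 (exact binomial 95% interval 414 to 12400, counting error only) with an adjusted p of 0.00198 by edgeR. Tgm1, a transglutaminase of epithelia, reached 56.9, 28.2 and 36.9 CPM in NTD from at most 0.104 in controls (adjusted p = 0.00515 by edgeR). Tdh, threonine dehydrogenase, reached 61.6, 73.9 and 32.2 CPM from at most 0.209 (adjusted p = 0.00352 by edgeR). All 3 calls were lost without NTD library 1. Eps8l2, Slc6a2, Pnma5, Slc27a2 and Slc39a4 made up the 8 largest rises, with log2 fold changes of 8.11 to 10.13. Plac1 and Gata4, known from placenta and from endoderm and heart, were also called higher. Ascl2, the other tested single-peak gene among the trophoblast markers, was not called. Krt18, a keratin of simple epithelia, stood at 9.4, 10.4 and 7.67 CPM in controls and at 273, 228 and 244 CPM in NTD, which gives log2 4.76 for the fold change (SE 0.30, adjusted p = 0.000106 by edgeR).

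The 8 largest falls were Trim67, Pnma2, Ncan, Nfasc, Col8a2, Ina, Grik5 and Tubb3. Ina, which encodes the neurofilament protein alpha-internexin, stood at 492, 536 and 606 CPM in controls and at 85.5, 61.4 and 67.9 CPM in NTD, with a log2 fold change at -2.93 (SE 0.23, adjusted p = 0.000613 by edgeR). The groups did not overlap. Tubb3, a neuronal beta-tubulin, stood at 2350, 1260 and 1100 CPM in controls and at 279, 325 and 304 CPM in NTD (adjusted p = 0.00378 by edgeR), a call lost without NTD library 1. Ncan, the proteoglycan neurocan, stood at 67.8, 44.5 and 46.2 CPM against 4.77, 3.26 and 2.83. Nfasc, an adhesion protein of axons, stood at 136, 80.9 and 104 CPM against 10.9, 16.8 and 7.09. Trim67 was at 25.8, 18.4 and 10.8 CPM in controls and had no count in any NTD library, which makes it at least 133-fold lower against 3 counts per library. Of these falls, Nfasc was not called without NTD library 1, and Trim67, Pnma2, Col8a2 and Grik5 each lost the call without at least 1 control and 1 NTD library. Of the rises, Eps8l2 lost it without NTD library 1, and Slc6a2, Pnma5, Slc27a2 and Slc39a4 without any 1 of the NTD libraries. Pnma5 also lost it without any 1 of the control libraries. Over all alternatives that tested them, the call was lost under 10 for Pnma5, 8 for Slc27a2, 6 for Slc39a4 and 5 for Slc6a2. Without control library 1 and NTD library 3 together, Pnma5, Slc27a2 and Col8a2 were not called, at adjusted p-values of 0.0557, 0.0669 and 0.0557 by edgeR.

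**Figure D5:**
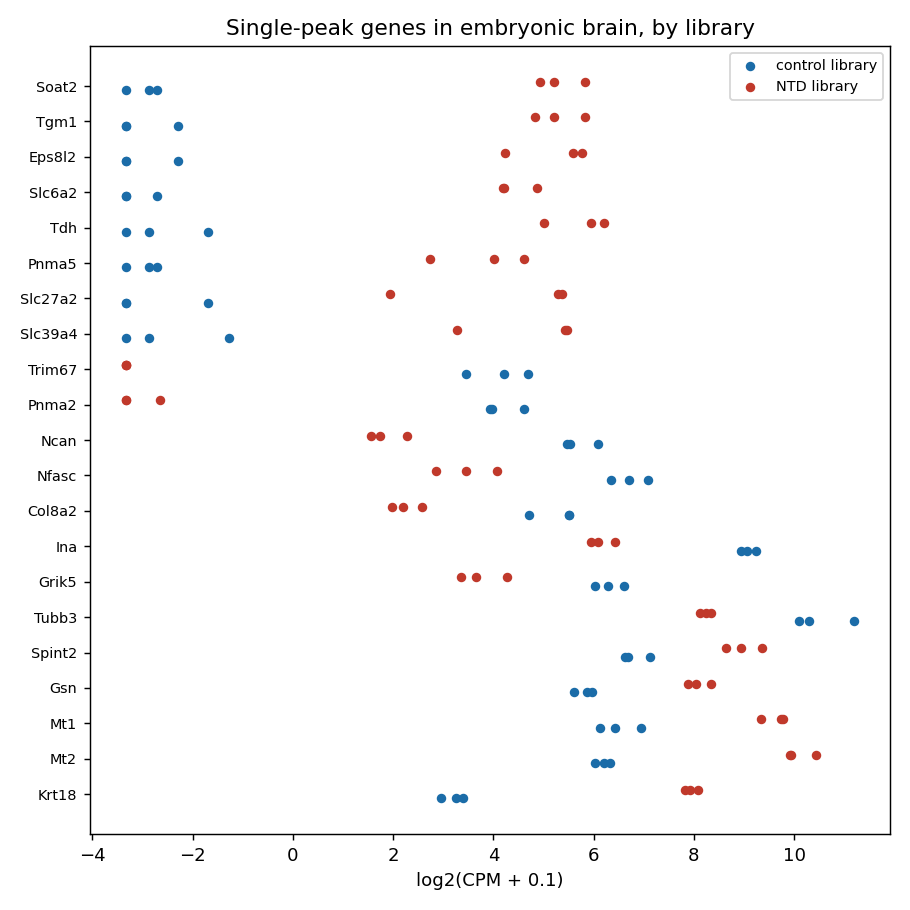
Level of each single-peak gene in every brain library as log2(CPM + 0.1), blue for the 3 control and red for the 3 NTD libraries, for the 8 largest rises, the 8 largest falls and 5 of the genes called whichever library was left out. The groups do not overlap for any gene shown.

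Metallothioneins bind zinc and copper, and Mt1 and Mt2 each had 1 peak and went opposite ways in the 2 systems. In brain Mt1 stood at 69.7, 86.2 and 124 CPM in controls and at 854, 882 and 644 CPM in NTD, which gives log2 3.09 for the fold change (SE 0.28, adjusted p = 0.000898 by edgeR). Mt2 stood at 80.6, 74.0 and 65.1 CPM in controls and at 981, 962 and 1380 CPM in NTD, which gives log2 3.92 for the fold change (SE 0.24, adjusted p = 0.000106 by edgeR). In stem cells Mt1 went from 162.4 FPKM in FA4 to 95.81 in FA0, with a count ratio of 0.593 (0.518 to 0.678). Mt2 went from 320.31 to 231.58 FPKM, with a count ratio of 0.723 (0.658 to 0.795). On the log2(FPKM + 1) scale Mt1 was at -0.76 and passed 1.5-fold, while Mt2 was at -0.47 and did not. Each stem cell group had 1 library. The difference between the systems was not tested.

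The deposited table gives no peak positions, so the bases under the peaks are not shown. The promoters of Mt1 and Mt2 are shown because both genes differed in the same direction within each system. That of Ddit3 is shown because it was the 1 single-peak gene of the stress list past 1.5-fold. They are RefSeq sequences on GRCm38.p6, from 250 bases before to 50 after the start, 5′ to 3′ on the plus strand. Capitals mark matches on either strand to TGCNCNC, and matches may overlap. This pattern is looser than TGCRCNC (R for A or G), the core of the metal response element bound by the factor MTF1. The Mt2 matches GGGAGCA and TGCTCTC and the Ddit3 match TGCCCCC have T or C in place of R, on the matching strand. A match is therefore not by itself such a core. Mt1 lies at chr8:94178839-94179138, Mt2 at chr8:94172368-94172667 and Ddit3 at chr10:127290543-127290842.
Mt1: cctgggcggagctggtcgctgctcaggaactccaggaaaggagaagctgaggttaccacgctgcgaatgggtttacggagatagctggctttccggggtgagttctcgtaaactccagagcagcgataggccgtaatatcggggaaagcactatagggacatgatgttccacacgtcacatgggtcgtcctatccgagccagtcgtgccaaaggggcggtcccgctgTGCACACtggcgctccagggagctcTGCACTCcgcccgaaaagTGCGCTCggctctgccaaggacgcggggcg
Mt2: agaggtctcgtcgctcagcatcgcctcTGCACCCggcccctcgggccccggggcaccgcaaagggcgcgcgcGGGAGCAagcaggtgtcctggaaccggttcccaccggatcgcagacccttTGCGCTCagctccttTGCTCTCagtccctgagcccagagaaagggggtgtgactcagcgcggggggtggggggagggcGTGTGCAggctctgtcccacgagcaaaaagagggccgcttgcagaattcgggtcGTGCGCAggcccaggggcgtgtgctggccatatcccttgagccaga
Ddit3: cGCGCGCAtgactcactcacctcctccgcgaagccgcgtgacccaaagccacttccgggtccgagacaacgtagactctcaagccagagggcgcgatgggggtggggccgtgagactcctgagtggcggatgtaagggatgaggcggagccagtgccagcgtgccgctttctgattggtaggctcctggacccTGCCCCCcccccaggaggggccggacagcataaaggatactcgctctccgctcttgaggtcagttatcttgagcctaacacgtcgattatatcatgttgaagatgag
Mt2 held 6 matches to TGCNCNC, Mt1 held 3 and Ddit3 held 2. Of 32851 promoter entries 51.0% held at least 1 match, 20.2% at least 2, 7.1% at least 3 and 0.225% at least 6. In all, 4 motifs were searched. CCAAT was found once in Ddit3, on either strand, and in 37.4% of all promoters, while TGATGCAA (0.895% of promoters) and the endoplasmic reticulum stress element (0.119%) were in none of the 3. A match describes letters only.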

How the data were processed

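The authors deposited raw read counts per gene for brain, and for stem cells a table of estimated counts, FPKM values, log2 folds and p-values, with 1 entry per peak, per the file headers. The authors' log2 peak folds and adjusted p-values were used as description only. The submitters' processing notes name build mm10, HISAT2 2.0.4, HTSeq 0.9.1, cutadapt 1.9.3 and edgeR, with no step given. Members and gene lists were chosen with earlier results of these data known. Stem cell ratios used log2(FPKM + 1) at a mean of at least 5 FPKM, with no test. Count ratios were divided by a depth ratio of 1.334, the median over 8259 genes with at least 20 counts in both libraries. Brain counts were tested with edgeR 4.0.16 (TMM, filterByExpr, robust quasi-likelihood), adjusted by Benjamini-Hochberg over 11626 genes. The same fit was first run on simulated counts with dispersions estimated from these libraries. It missed many of the changes put in, and all of them with a common dispersion, so uncalled genes may still differ. DESeq2 1.42.0 and limma 3.58.1 were alternatives. Whether replicates came from separate litters is not given in the labels, and p-values cover only the spread among these libraries, which may be technical. Genes named were the 8 largest rises and falls in each system, the 6 highest by FPKM and by peak fold, and up to 3 per list, without predicted genes; 1 of these is not reported here. Krt18, Mt1, Mt2, Plac1 and Gata4 in brain and the promoter motifs were chosen after their values were seen. Transcripts came from GENCODE M21, and 2827 members had a RefSeq promoter.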

Additional observations from a re-analysis of the deposited data

How the results depend on the processing

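The median stem cell log2 ratio of single-peak genes was 0.00467 at a minimum of 1 FPKM and 0.0115 on estimated counts. The counts of genes higher and lower past 1.5-fold were 32 and 39 with a pseudocount of 5, 169 and 157 at a minimum of 1 FPKM, 33 and 49 at 10 FPKM, and 195 and 178 with no minimum. Fewer or more genes enter under these minimums, and the cause was not tested otherwise. In the authors' deposited table, median Control fold, Case fold and difference were 6.91, 5.54 and -1.3 for peaks at or above the median fold in both libraries, 4.06, 3.67 and -0.528 for genes at 5 FPKM or more, 6.27, 4.88 and -1.38 in the first run of peak numbers and 2.98, 3.67 and 0.658 in the second. The splits by run, the set without shared peaks and the brain fit without 2 libraries together were chosen after seeing the data. In brain, DESeq2 called 122 higher and 83 lower (7.41% of members, 8.91% of all genes), against 42 and 24 by edgeR. With the replicate number as a block, 25 were higher and 18 lower (1.55%, against 1.76%). Limma-voom called 36 higher and 23 lower (2.13%, against 2.23%), without Ncan (adjusted p = 0.104), Tdh (0.0554), Eps8l2 (0.0663), Slc27a2 (0.19), Pnma2 (0.0527), Pnma5 (0.0959), Col8a2 (0.165) and Slc39a4 (0.115). Same-numbered libraries correlated at -0.021, 0.093 and 0.031 in their deviations from the group means. With 3 libraries per group, and no other pairs compared, this cannot decide whether the numbers pair them. Leaving out 1 library gave 6 to 49 higher and 2 to 19 lower, or 0.28% to 2.25% of members against 0.404% to 2.41% of all genes. The 8 largest rises and 8 largest falls of each system kept their direction under each alternative that gave them a value. For genes near a ratio of 1 the direction can differ between scales, as for Herpud1, at an FPKM ratio of 1.03 and a count ratio of 0.956. The alternatives on transcript part and peak length were not run, since the table gives neither. Single stem cell libraries, and the low counts of genes under 1 FPKM, limit what can be told there.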

Other observations

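Among single-peak genes, 72 were listed at 0 FPKM in both stem cell libraries although a peak is listed for them. A further 37 were listed at 0 in FA4 only and 31 in FA0 only. Of the 528 genes whose peak is listed for another gene too, 268 shared it with another single-peak gene, over 127 peaks. The peak with the most genes, 7, was listed for the single-peak genes Pcdha1 to Pcdha6 and for a gene with more than 1 peak. Pcdha1 to Pcdha6 are members of the clustered protocadherins, whose transcripts share their last exons. Peak values were missing for 18 single-peak genes. Of the genes with 2 peaks, 1031 (44.7%) had 1 peak in each run of peak numbers.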
